A study of Mus musculus with 20 samples.

Results

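Acetylation of histone H3 at lysine 27 (H3K27ac) was compared between mouse neural progenitor cells (NPCs) and embryonic stem (ES) cells, the cell type they are derived from. The comparison uses 4 of the 20 libraries of the series, chosen by their labels: 1 NPC H3K27ac library, 2 ES H3K27ac libraries and 1 ES library of total histone H3 as background. Each library comes from chromatin immunoprecipitation with sequencing, which counts DNA fragments carried down by an antibody. The ES libraries came from V6.5 cells, a C57BL/6 by 129 hybrid line, kept on fibroblast feeders and taken 1 passage off them. The NPCs, given the same 129JAE-C57/B6 background as those ES cells, were made from embryoid bodies 4 days old, selected for 5 to 7 days in ITSFn medium and expanded in N3 medium with FGF and EGF. The labels name no other treatment and no mutation in either group. ES H3K4me1 (3 libraries), p300 (2) and whole cell extract (WCE, 1) describe the same bins from other material. Of the H3K4me1 libraries, replicate 1 is from V6.5 cells, replicate 2 from cells carrying the 4f2a transgene and replicate 3 from an inbred C57BL/6 line.

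H3K27ac is laid down on nucleosomes around active promoters and active enhancers, where p300 is one of the acetyltransferases that write it. H3K4me1 marks enhancers whether or not they are acetylated, and H3K4me3 marks promoters. When ES cells become neural progenitors, the enhancers of the pluripotent state are known to lose activity while neural enhancers are switched on. Some enhancers carry H3K4me1 before they are acetylated and are then called poised.

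The autosomes were divided into bins of 1000 bp, and levels are distinct reads per 1000000 distinct autosomal reads (RPM). A bin was a promoter bin where H3K4me3 reached 4 RPM in ES cells or liver, and the rest are called other bins. A promoter used only in NPCs, for which no H3K4me3 library was used here, therefore counts among the other bins. Bins were tested where the mean of the NPC level and the ES mean was at least 1 RPM, which held for 30420 of 37439 promoter bins and 111664 of 2425007 other bins. A bin was a gain where the NPC level plus 0.5 RPM was at least 4-fold over that of each ES library and 2-fold over H3, and a loss where both ES libraries exceeded NPCs in the same way. A bin was kept where all 3 libraries held at least 2 RPM and NPCs lay within 2-fold of each ES library. Coordinates fit the mm8 assembly. No gene annotation or genome of that assembly was used here, so regions carry no gene names, no sequence is shown, and the NPC label was not checked against marker genes.

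The ES libraries had 8766359 and 8403078 distinct autosomal reads, the NPC library 6811835 and ES H3 9382196, so that 1 NPC read is worth 0.147 RPM. Repeated reads made up 19.1% of the NPC library and 3.52% and 8.64% of the ES libraries. The libraries spread their reads differently. Promoter bins held 53.0% of NPC reads, against 22.7% and 31.0% in ES replicates 1 and 2, and 1.87% of H3 reads. Outside the tested and promoter bins, NPCs had a mean of 0.150 RPM per bin and the ES libraries 0.235 and 0.195. The part that this difference in enrichment plays in the results below was not tested, and changes are relative to the RPM scale. In cell populations, fewer cells with the mark and less of it per cell cannot be told apart.

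Away from promoters, more of the tested bins were losses than gains. Of the other bins tested, 24478 (21.9%) were losses and 7797 (6.98%) were gains, and 3398 (3.04%) were kept. The median difference from ES cells was -1.13 in log2(RPM + 0.5), with quartiles at -2.09 and 0.16. Between the 2 ES libraries only 9 of the 111664 bins lay 4-fold apart, and 3.76% lay 2-fold apart. NPCs lay 4-fold from ES replicate 1 at 37.1% and from ES replicate 2 at 35.3% of these bins. With limma, 19682 other bins (17.6%) were higher and 61118 (54.7%) lower in NPCs past an adjusted p of 0.05, all gains and losses among them. Over all 142084 bins tested, promoters included, gains were 7.66% and losses 19.4%, and limma placed 21.3% higher and 47.7% lower. That test has 1 residual degree of freedom from the ES pair and assumes that the single NPC library varies like an ES library. It uses the same values as the 4-fold rule, so gains and losses passing it are no separate support. Gains made up 24.2% of the gains and losses, and this split ran from 6.78% with libraries scaled to their promoter reads to 44.1% with a trimmed mean of M-values. Losses outnumbered gains under each of these scalings and, with 24.1% gains, with no filter on low bins. The limma split did not hold without the filter: over 1770843 other bins it placed 201815 higher and 5467 lower, 97.4% of them higher. With limma-voom the numbers were 16053 higher and 19079 lower.

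At promoters gains and losses were balanced in number under the 4-fold rule on the RPM scale, and many bins stayed acetylated. Gains numbered 3081 (10.1%) and losses 3107 (10.2%) of the promoter bins tested, and 5532 (18.2%) were kept. The median difference was 0.76 in log2(RPM + 0.5), with quartiles at -0.67 and 1.59. With limma, 10548 (34.7%) were higher in NPCs and 6621 (21.8%) lower past the same adjusted p. That order turned in 5 alternatives, with 1894 higher and 2899 lower in libraries thinned to equal depth, 368 and 736 with no filter, 12137 and 13088 with promoters from 2 RPM of H3K4me3, 12772 and 16290 with promoters widened by 2 bins, and 5973 and 9794 with scaling to promoter reads. The ES libraries themselves differed here, with a median of 0.41 between replicate 2 and replicate 1, and 7.34% of bins 2-fold apart. Against replicate 1 the NPC median was 0.92 and against replicate 2 it was 0.59. Without ES replicate 2 the promoter gains rose in number to 6581. The promoter balance rested on the settings. Gains were 49.8% of gains and losses on the RPM scale, 17.4% after scaling to promoter reads and 75.2% with a trimmed mean of M-values. They were 66.4% with a 2-fold rule and 33.9% with an 8-fold rule. Promoters from 2 RPM of H3K4me3 gave 35.9%, and promoters widened by 2 bins 33.8%. Without ES replicate 1 the share was 45.5%, and without ES replicate 2 it was 65.9%. The median fell to -0.19 after scaling to promoter reads, so the direction of the net change at promoters is not fixed by these libraries.

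**Figure D1:**
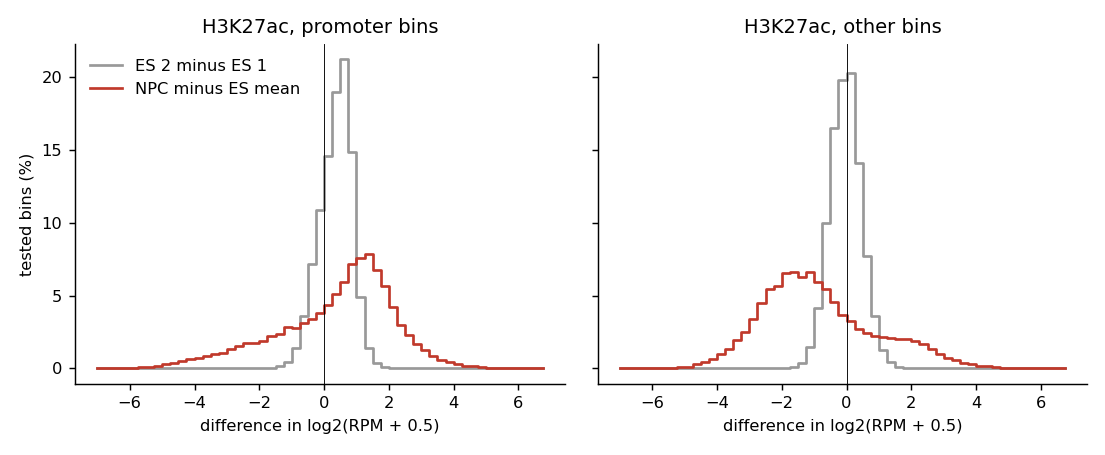
Share of tested bins (vertical axis, %) by difference in log2(RPM + 0.5) of H3K27ac (horizontal axis), for promoter bins and other bins. The red line is NPC minus the mean of the ES libraries, with a median of 0.76 at promoters and -1.13 elsewhere, and the grey line is ES replicate 2 minus ES replicate 1.

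The contrast between promoters and other bins also held at equal starting levels. Among bins with 4 to 8 RPM in the lower ES library, 14.9% of 6745 promoter bins and 69.7% of 12794 other bins were losses, with median NPC levels of 11.7 and 0.440 RPM. With 8 to 16 RPM in ES cells the shares were 15.6% of 6480 and 83.8% of 4439, and with 16 RPM or more 17.4% of 3340 and 85.0% of 859. Of the other bins with 16 RPM or more in ES cells, a minority still held 2 RPM in NPCs, namely 29.3% against 87.1% of promoter bins. At lower ES levels that minority was smaller, with 9.87% at 2 to 4 RPM, 13.6% at 4 to 8 and 17.8% at 8 to 16. The share of promoter bins rose with the ES level as well, from 65.6% at 2 to 4 RPM. The same held from the NPC side. Where NPCs had 8 to 16 RPM, 65.4% of 2638 other bins and 13.4% of 3938 promoter bins were gains. The H3K4me3 limit of 4 RPM cuts a continuous range: just below it, at 3 to 4 RPM, 29.8% of 4329 tested bins were losses and 5.08% gains, and just above it, at 4 to 5 RPM, 21.6% of 2324 and 7.31%. Bins are not replicates and neighbours share nucleosomes, so these shares are given without a test.

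Promoters marked by H3K4me3 in ES cells but not in liver behaved differently from the rest. Of 3578 such bins tested, 41.6% were losses and 4.78% gains, and the median level was 4.68 and 5.71 RPM in the ES libraries and 1.03 RPM in NPCs. Where H3K4me3 was present in both ES cells and liver, 4.17% of 18960 bins were losses and 11.0% gains, with medians of 6.96 and 10.0 RPM in ES cells and 19.97 RPM in NPCs. Bins with H3K4me3 in liver alone had 10.5% gains and 10.5% losses among 7882 tested, with medians of 2.17, 2.38 and 2.20 RPM. The ES H3K4me3 library has 2319684 distinct autosomal reads after removal of 70.0% repeats, so weakly marked ES promoters may fall in the liver-only set.

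At the bins gained away from promoters, ES H3K4me1 and p300 were low. Median ES H3K4me1 at these 7797 bins was 0.503, 0.532 and 0.484 RPM in replicates 1 to 3, against 2.21, 2.34 and 2.74 RPM over all other bins tested. Median ES p300 was 0.575 and 0.607 RPM, against 1.29 and 1.09 RPM. Total H3 (0.533 RPM) and WCE (0.575 RPM) at the gains were close to these values, so the medians of both marks lay near background. In 3759 gains (48.2%) every H3K4me1 and p300 library was under 1 RPM, against 8.32% of all other bins tested. All 3 H3K4me1 libraries reached 2 RPM in 543 gains (6.96%), against 46.0%, and both p300 libraries in 203 (2.60%), against 17.8%. The filter on the mean let 6679 of the gains pass through the NPC level alone, with an ES mean under 1 RPM, and 23061 of the losses through the ES level alone. At promoters these numbers were 547 and 2393. Such bins had to differ once they passed, and most tested bins were admitted by ES H3K27ac, which moves with ES H3K4me1 and p300. The number of gains and their low marks against the tested bins are therefore given as a description. Among bins under 1 RPM in each ES H3K27ac library, given further on, gains reached 2 RPM of H3K4me1 more often than the whole set. Gains and the set were not matched on ES H3K27ac below that limit.

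At the bins that lost H3K27ac in NPCs, ES H3K4me1 was high in most and p300 in under 50%. Median ES H3K4me1 at the 24478 losses away from promoters was 3.52, 3.83 and 4.03 RPM, and median p300 2.16 and 1.94 RPM, while H3 was 0.533 and WCE 0.863 RPM. All 3 H3K4me1 libraries reached 2 RPM at 19326 losses (79.0%), against 46.0% of all other bins tested, and both p300 libraries at 10654 (43.5%), against 17.8%. The loss rule asks for high ES H3K27ac, with which both marks move. Its medians were 5.13 and 4.64 RPM at losses against 2.17 and 2.14 RPM over all other bins tested. This comparison is therefore a description as well. Kept bins were close to the losses, with 3.02, 3.51 and 3.87 RPM of H3K4me1 and 2.01 and 1.58 RPM of p300. Of the kept bins 70.9% passed the H3K4me1 level and 32.9% the p300 level. At promoters the order of gains and losses was the same. H3K4me1 stood at 0.905, 1.28 and 1.13 RPM at promoter gains and 2.01, 2.56 and 2.10 RPM at promoter losses, and p300 at 1.72 and 1.33 against 3.16 and 2.55 RPM. ES H3 (0.320 against 0.426 RPM) and WCE (0.575 against 0.863 RPM) were also lower at promoter gains than at promoter losses.

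**Figure D2:**
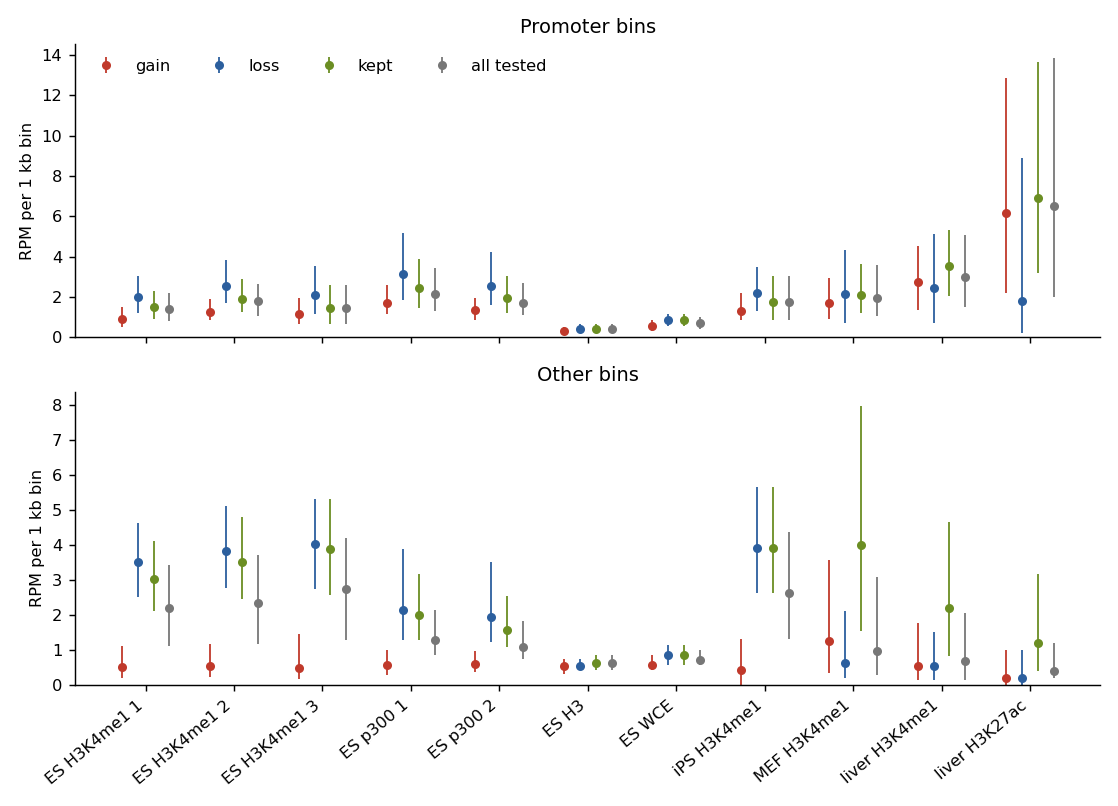
Level per 1 kb bin (RPM) of libraries that took no part in choosing the bins, with H3 as the background of that choice, at gains, losses, kept bins and all tested bins. Points are medians and lines span the quartiles over bins. In other bins the gains have medians of 0.484 to 0.607 RPM in the ES H3K4me1 and p300 libraries, where the losses lie between 1.94 and 4.03 RPM.

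Around the 5008 clusters of gained bins away from promoters, formed by joining gains with at most 1 bin between them, ES cells showed a small local rise of both marks. Mean H3K4me1 was 0.83, 0.88 and 1.03 RPM in the central bin and 0.59, 0.60 and 0.65 RPM at 10 kb upstream along the chromosome. Mean p300 was 0.84 and 0.76 RPM against 0.61 and 0.57 RPM, while WCE was 0.62 against 0.54 RPM and H3 0.54 against 0.51 RPM. NPC H3K27ac rose from 0.98 to 7.72 RPM over the same distance, and the ES libraries stayed between 0.52 and 0.64 RPM over the whole window. Around the 11175 clusters of losses, ES H3K4me1 rose from 1.57, 1.66 and 1.80 to 3.35, 3.73 and 3.91 RPM and p300 from 1.26 and 1.14 to 3.39 and 3.11 RPM. NPC H3K27ac there dipped to 0.32 RPM in the centre, from 1.15 RPM at 10 kb. Clusters were chosen on H3K27ac, so its levels at the centres of gains and losses follow from the rule. ES H3K4me1 and p300 took no part in that choice. Mean ES H3K27ac was still 2.10 and 2.12 RPM at 10 kb from the centres of losses. These means include promoter bins, and 48.5% of loss bins lay within 10 kb of a promoter bin. How many losses had acetylated neighbours is not shown by them.

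**Figure D3:**
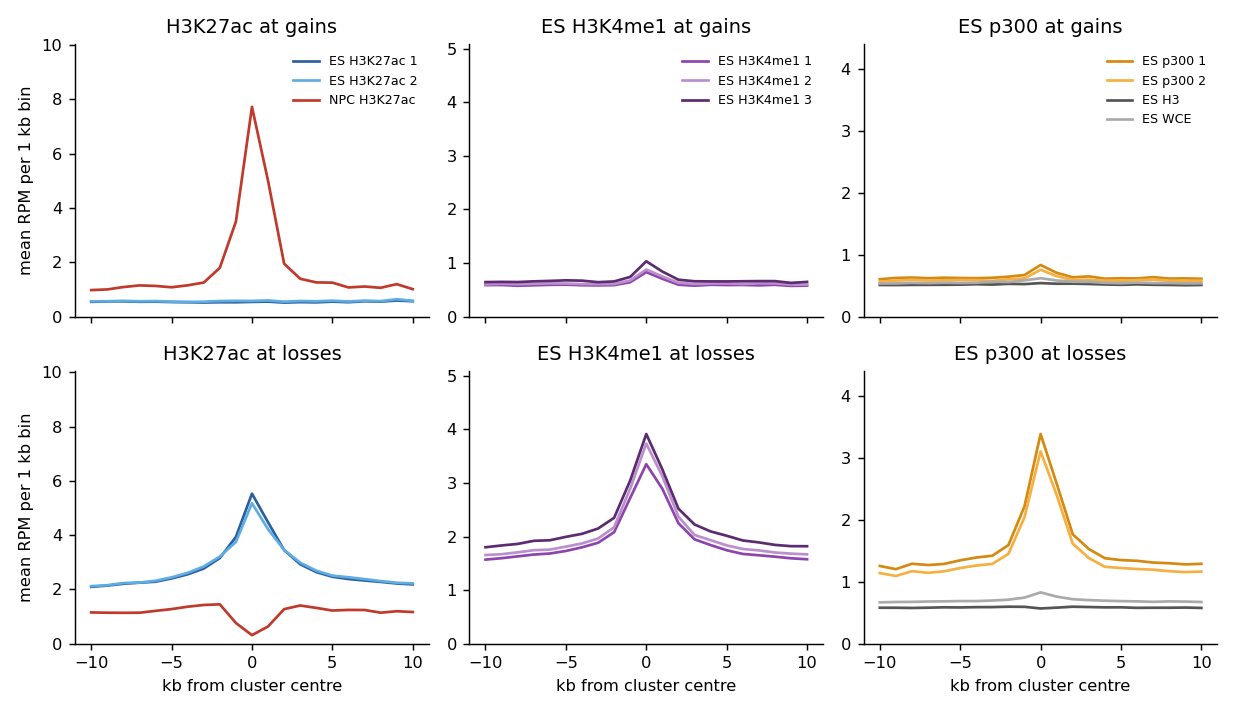
Mean level per 1 kb bin (RPM) by distance in kb from the centre of clusters of gains (upper row, 5008 clusters) and losses (lower row, 11175 clusters) away from promoters, for H3K27ac, ES H3K4me1, and ES p300 with H3 and WCE. Each line is 1 library. The rise of ES H3K4me1 and p300 is small at gains and large at losses.

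Whether ES bins with an enhancer mark but little H3K27ac were acetylated more often in NPCs was asked of 1655854 other bins with under 1 RPM in each ES H3K27ac library and at least 1 read in H3 and WCE. Gains were rare throughout. They made up 0.306% (95% Wilson interval 0.297 to 0.314) of bins with mean ES H3K4me1 under 1 RPM, 1.18% (1.11 to 1.26) at 1 to 2 RPM, 1.40% (1.25 to 1.58) at 2 to 4 RPM and 1.06% (0.487 to 2.29, 6 of 566 bins) at 4 RPM or more. The share at 2 RPM or more was 4.57 times (4.06 to 5.14) that under 1 RPM. For p300 the shares were 0.322%, 1.44%, 2.11% and 1.12%, the last from 6 of 537 bins. H3 and WCE moved with the classes as well, from 0.472 and 0.473 RPM under 1 RPM of H3K4me1 to 0.594 and 0.696 RPM at 2 to 4 RPM, and so did ES H3K27ac, from 0.146 to 0.549 RPM. Their part in the difference was not tested. Of the 5966 gains in this set, 4760 (79.8%) had under 1 RPM of H3K4me1, a smaller share than the 94.1% of all bins in the set. Conversely 290 (4.86%) had 2 RPM or more, against 1.26% of the set. Intervals cover counting error only.

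The corresponding question for losses was asked of 49402 other bins with at least 2 RPM in each ES H3K27ac library. Losses made up 16.7% of bins with H3K4me1 under 1 RPM, 31.2% at 1 to 2, 44.5% at 2 to 4 and 57.5% at 4 RPM or more. For p300 they made up 39.1%, 38.0%, 53.2% and 72.1% in the same classes. A loss is a fold difference, and marked bins did not less often keep the mark. The share still at 2 RPM or more in NPCs was 7.85%, 10.0%, 11.3% and 13.4% over the H3K4me1 classes. Over the p300 classes it was 6.97%, 11.2%, 14.8% and 14.0%. ES H3K27ac rose along the same classes, from 2.92 to 6.34 RPM for H3K4me1 and from 3.30 to 8.40 RPM for p300. Within classes of the ES H3K27ac level, a division chosen after seeing the data, the shares were as follows. At 2 to 4 RPM of H3K27ac, losses rose from 13.8% to 32.4% over the classes of H3K4me1, and at 4 to 8 RPM from 48.9% to 64.9%. At 2 to 4 RPM the mean NPC level was flat, from 0.981 to 0.993 RPM, while the ES mean rose from 2.71 to 3.09 RPM. At 4 to 8 RPM the NPC means were 1.66, 1.15, 1.26 and 1.28 RPM. At 8 RPM or more, the H3K4me1 classes gave 90.0% (9 of 10 bins), 83.7%, 81.4% and 83.2%, and the p300 classes 89.0%, 84.3%, 80.8% and 83.3%. At 4 to 8 RPM, bins with p300 of 4 RPM or more had 75.4% losses (73.7 to 76.9) and those under 1 RPM 68.4% (65.9 to 70.8), with 58.6% and 61.7% between. At 2 to 4 RPM the p300 classes gave 31.9%, 24.8%, 31.2% and 47.0%, so that the highest p300 class had the highest share at both of these levels and not above them. The share of losses at 2 RPM or more of p300 was 1.54 times that under 1 RPM, and 1.14 or 5.20 times with a 2-fold or an 8-fold limit.

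**Figure D4:**
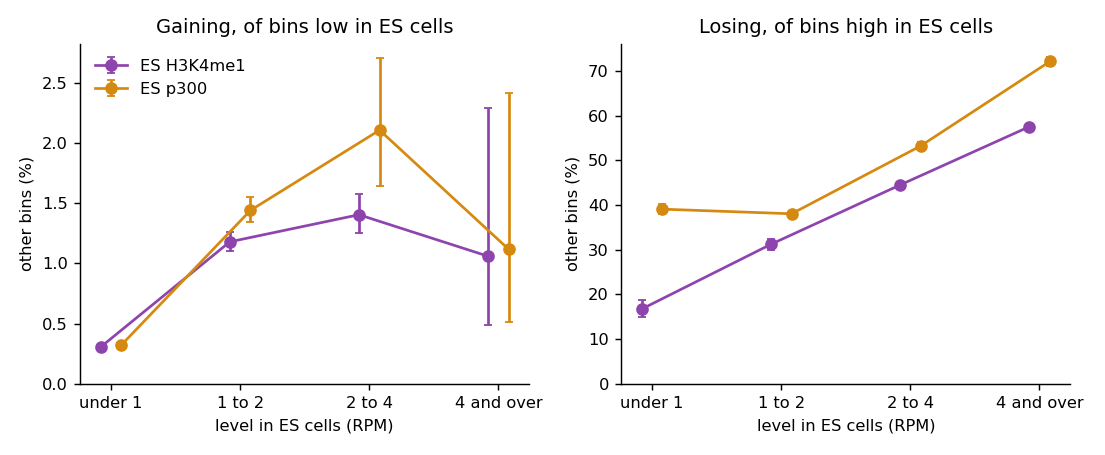
Share of other bins (%) that gained H3K27ac among bins under 1 RPM in each ES library (left), and that lost it among bins with at least 2 RPM in each (right), by mean ES H3K4me1 or p300 level (RPM). Bars are 95% Wilson intervals. Gains rise from 0.306% to 1.40% with H3K4me1 before the thinly filled top class, and losses from 16.7% to 57.5%. Of the bins on the right, the share still at 2 RPM or more in NPCs, not drawn, also rose with H3K4me1, from 7.85% to 13.4%.

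The strongest gains away from promoters rose to 74.0 RPM or more, 4 of the 5 from under 2 RPM in each ES library. The 5 clusters with the largest RPM difference from the nearer ES library are named by their best bin. Named bins here and below were picked on the difference that limma then measured in the same libraries. Their adjusted p-values therefore give no independent support. On chromosome 1, bin 106596001 to 106597000 had 1.25 and 1.79 RPM in ES replicates 1 and 2 and 104 RPM in NPCs, from 11, 15 and 708 reads. Its difference was 5.70 in log2(RPM + 0.5), with SE 0.429 and a limma adjusted p of 1.05e-37. Total H3 there was 0.640 RPM, the nearest promoter bin lay 225 kb away, and liver H3K27ac had 0 reads. The bin itself held 3.02 RPM of ES H3K4me3 from 7 reads, not far under the promoter limit of 4 RPM. Its ES H3K4me1 was 1.54 ± 0.859 RPM (SD, n = 3), with 2.42 RPM in the inbred line and 0.704 RPM in replicate 1. On chromosome 14, bin 54008001 to 54009000 had 1.03 and 0.952 RPM in ES cells and 94.2 RPM in NPCs, at 11 kb from a promoter bin. The log2 difference of 5.99 (SE 0.407, limma adjusted p = 2.74e-44) was the highest of the named bins.

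On chromosome 12, bin 68140001 to 68141000 lay 1936 kb from any promoter bin and had 1.25 and 1.79 RPM in ES cells and 94.0 RPM in NPCs. H3K4me3 in this bin was 2.16 RPM in ES cells and 1.52 RPM in liver, under the promoter limit. ES H3K4me1 there was 0.479 ± 0.565 RPM (SD, n = 3). It had 34.6 RPM of Rfx1, a sequence-specific DNA-binding protein, in the NPC Rfx1 library, where 1 read is worth 1.44 RPM. Bin 42639001 to 42640000 of chromosome 1, which lay 1 kb from a promoter bin, rose from 0.799 and 1.67 RPM to 74.0 RPM. The last of the 5 differed in its ES state. Bin 125114001 to 125115000 of chromosome 6, at 3 kb from a promoter bin, had 3.42 and 9.40 RPM in ES cells and 82.4 RPM in NPCs, with 4.60 ± 0.915 RPM of ES H3K4me1 (SD, n = 3), 16.7 RPM of fibroblast H3K4me1 and 6.34 RPM of liver H3K27ac. At each of these 5 bins the NPC library lay above both ES libraries by at least 4-fold, which is the rule that chose them.

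Promoter gains as a class started from higher ES levels, with medians of 2.17 and 3.45 RPM against 0.342 and 0.238 RPM for gains elsewhere. Bin 54312001 to 54313000 of chromosome 13 had 3.65 and 8.45 RPM in ES cells and 109 RPM in NPCs (log2 difference 4.16, SE 0.617, limma adjusted p = 1.09e-10), with 19.8 RPM of H3K4me3 in ES cells and 17.2 RPM in liver. Bin 85499001 to 85500000 of chromosome 15 had 3.54, 5.47 and 99.4 RPM. Bin 88085001 to 88086000 of chromosome 3 had 1.37 and 3.09 RPM in ES cells, 103 RPM in NPCs and 0 reads in liver. The other 2 promoter gains, on chromosomes 12 and 10, had 9.70 and 20.9 RPM and 13.9 and 28.3 RPM in ES cells against 125 and 121 RPM in NPCs. Both were under the limit with an 8-fold rule or with scaling to promoter reads. In both the ES libraries differed over 2-fold from each other, as they also did in the promoter bins named on chromosomes 13 and 3. Median Rfx1 in NPCs was 8.64 RPM at promoter gains, 1.44 RPM at promoter losses and 4.32 RPM over all promoter bins tested. The Rfx1 library has 694055 distinct reads and 72.5% repeats, and no NPC background library was used here.

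The strongest losses fell to a few reads. Among the other bins, 91677001 to 91678000 of chromosome 6 lay 4 kb from a promoter bin. It had 2.16 RPM of ES H3K4me3, under the promoter limit. There the ES libraries had 56.4 and 53.8 RPM from 494 and 452 reads, and NPCs had 0.440 RPM from 3 reads. The log2 difference was -5.88 (SE 0.576, limma adjusted p = 7.03e-23), and ES H3K4me1 stood at 11.4 ± 1.51 RPM (SD, n = 3). This bin was not silent elsewhere, with 7.92 RPM of H3K27ac in liver and 14.2 RPM of H3K4me1 in fibroblasts. Bin 87392001 to 87393000 of chromosome 12 had 52.9 and 45.7 RPM in ES cells and 0.587 RPM in NPCs, with 0 H3K27ac reads in liver. On the same chromosome, bin 110397001 to 110398000 had 44.4 and 57.7 RPM against 0.587 RPM. Both bins of chromosome 12 lay 1 kb from a promoter bin and had 3.45 RPM of ES H3K4me3.

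A pair of losses lay on chromosome 4. Bin 141439001 to 141440000, at 69 kb from a promoter bin, had 44.0 and 48.2 RPM in ES cells and 0.587 RPM in NPCs. Bin 140554001 to 140555000, at 3 kb from a promoter bin, had 41.9 and 43.3 RPM against 0.881 RPM. It held 34.4 ± 5.68 RPM of p300 (SD, n = 2), more than any other named bin. In all 5 of these losses both ES libraries were above 40 RPM in the bin while NPCs stayed below 1 RPM.

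Among promoter bins, 128734001 to 128735000 of chromosome 4 had 50.1 and 60.2 RPM in ES cells and 1.32 RPM in NPCs (log2 difference -4.93, SE 0.662, limma adjusted p = 9.74e-13), with p300 at 21.6 ± 5.37 RPM (SD, n = 2). Bin 135230001 to 135231000 of chromosome 5 had 49.3 and 60.9 RPM against 1.03 RPM, with H3K4me3 of 54.7 RPM in ES cells and 0.380 RPM in liver. Bin 34685001 to 34686000 of chromosome 17 had 49.9 and 54.9 RPM against 1.17 RPM. Bin 113052001 to 113053000 of chromosome 7 had 44.6 and 47.8 RPM against 1.76 RPM. Bin 23201001 to 23202000 of chromosome 19 had 44.9 and 55.9 RPM in ES cells, 0.734 RPM in NPCs and 56.6 RPM in liver. This last bin was thus as strongly acetylated in liver as in ES cells and near background in NPCs.

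**Figure D5:**
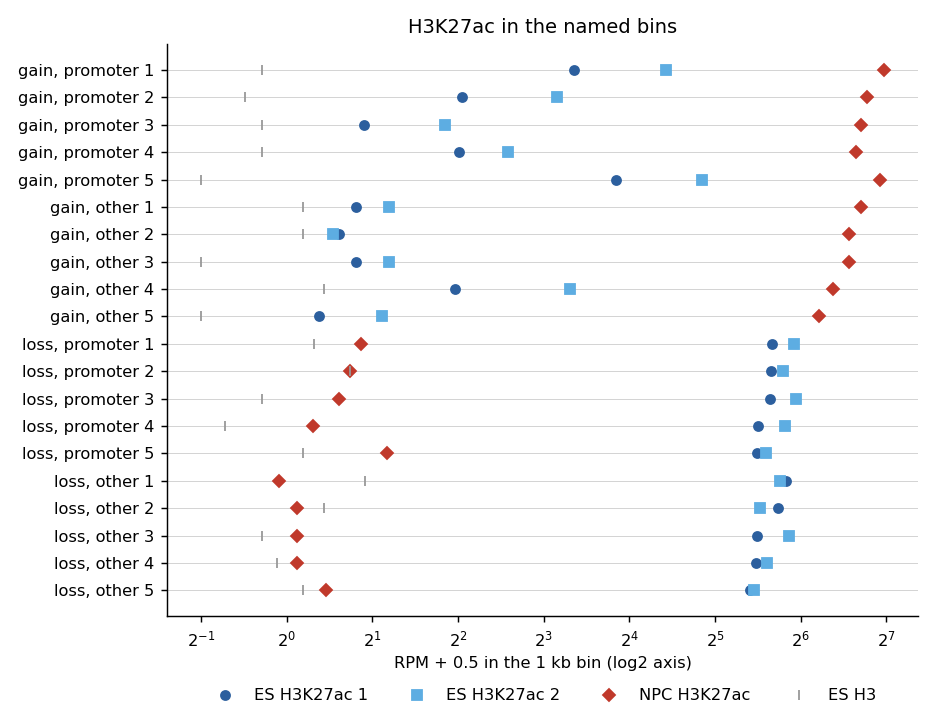
H3K27ac level plus 0.5 RPM on a log2 axis in the 20 named bins, 5 each of gains and losses in promoter and other bins, for the 2 ES libraries, the NPC library and ES H3. The NPC points lie at 74.0 RPM or more in the gains and at 1.76 RPM or less in the losses.

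Losses formed wider blocks than gains. Joined over at most 1 bin, the 24478 losses away from promoters made 11175 clusters, of which 1072 held 5 bins or more, and 56.3% of the bins lay in clusters of at least 3. The 7797 gains made 5008 clusters, 70 of them with 5 bins or more, and 26.2% of bins lay in clusters of at least 3. Loss bins were also the more numerous, and more numerous bins join more readily. The part of this in the cluster sizes was not tested, and clusters were formed on the RPM scale only. With promoter bins included, the widest loss ran over 54 kb of chromosome 12, from 87350001 to 87404000, with 51 loss bins. Its mean level per bin was 14.7 and 12.7 RPM in the ES libraries, 0.462 RPM in NPCs and 0.576 RPM in H3. ES H3K4me1 averaged 3.95, 5.10 and 3.87 RPM and p300 6.81 and 5.92 RPM over it, whereas fibroblast H3K4me1 averaged 0.183 RPM. The next, from 91653001 to 91689000 of chromosome 6, fell from 11.4 and 10.4 RPM to 0.241 RPM and had 9.46 RPM of H3K27ac in liver. The third, from 138486001 to 138518000 of chromosome 1, fell from 7.95 and 6.95 RPM to 0.317 RPM.

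The widest gain covered 26 kb of chromosome 13, from 84193001 to 84219000, with no promoter bin. Its mean level was 0.382 and 0.485 RPM in the ES libraries and 13.5 RPM in NPCs, while liver H3K27ac averaged 0.0762 RPM and ES H3K4me1 0.943, 1.04 and 1.10 RPM. The second, from 42628001 to 42650000 of chromosome 1, rose from 0.363 and 0.671 RPM to 18.4 RPM and held 3 promoter bins. The third, from 88299001 to 88320000 of chromosome 3, rose from 0.701 and 0.833 RPM to 18.0 RPM and had the most ES H3K4me1 of the 3, at 1.46, 2.51 and 3.08 RPM. In all 3 gains both ES H3K27ac libraries averaged under 1 RPM.

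Gains lay farther from ES or liver promoter bins than losses did, and near such bins the direction was shared. The median distance to a promoter bin was 38 kb for gains, 11 kb for losses, 8 kb for kept bins and 14 kb over all other bins tested, and 42.5% of gains against 13.5% of losses lay over 50 kb away. A promoter used only in NPCs could not count as the nearest one, whereas those of ES cells could. The part of this in the distances was not tested. Within 10 kb of a promoter gain lay 12.6% of gains and 0.993% of losses, against 4.01% of all other bins tested. Within 10 kb of a promoter loss lay 26.9% of losses and 0.911% of gains, against 12.0%. A single broad peak can span a promoter bin and its neighbours, so part of this sharing can come from the same peak, which was not tested.

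iPS cells, which are fibroblasts reprogrammed to the pluripotent state, carried H3K4me1 at the lost bins as ES cells did. At losses away from promoters, iPS H3K4me1 had a median of 3.92 RPM and reached 2 RPM in 84.8% of bins, against 61.2% of all other bins tested. Kept bins had the same median of 3.92 RPM, and 84.0% of them reached 2 RPM, so this level was not particular to losses. At gains the median was 0.436 RPM, which is a single read of that library, and 15.7% of bins reached 2 RPM. Fibroblast H3K4me1 had the opposite order, with medians of 1.26 RPM at gains, 0.630 RPM at losses and 0.980 RPM over all other bins tested. At kept bins it was 3.99 RPM. Liver H3K27ac had a median of 0.198 RPM at gains and at losses, 1.19 RPM at kept bins and 0.396 RPM over all other bins tested. It reached 2 RPM in 13.6% of gains and 13.1% of losses, near the 15.5% of all other bins tested, and in 35.5% of kept bins. Liver H3K4me1 was 0.546 RPM at gains and losses, 2.19 RPM at kept bins and 0.683 RPM over all other bins tested. The kept bins were thus the ones most often marked in liver and fibroblasts among these classes.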

How the data were processed

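Libraries were grouped by their titles. Sonication, per the labels, gave fragments averaging 500 bp, which were amplified with 18 PCR cycles. The authors deposited, for each library, a list of signed read positions, which is neither a count per region nor a normalised signal. The aligner and the build were not given in the sources used here, but the largest positions lie within mm8 lengths on all 19 autosomes and beyond mm9 lengths on 5. Reads were counted once per position and strand, moved 100 bp toward the fragment centre, counted in 1000 bp bins and scaled to RPM over distinct autosomal reads. Differences were tested with limma 3.58.1 (R 4.3.3, trend, Benjamini-Hochberg) on log2(RPM + 0.5), checked on simulated data, where it recovered fewer falls than rises. Its prior degrees of freedom were infinite, so each bin took the spread of the ES pair at its level. The labels do not say that the ES libraries are separate cultures, and p-values measure only their spread, which may be technical. Chi-square per bin between them was 2.84 over 141562 bins, above sampling noise, and 5.09% of replicate 1 positions recurred in replicate 2. ES p300, WCE and H3K4me1 replicate 1 were from cells 2 passages off feeders, and H3K4me1 replicates 2 and 3 from cells 1 passage off.

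The bins named were, per class, the best bin of the 5 clusters with the largest RPM difference from the nearer ES library, and the 3 clusters with most gains and with most losses. The comparison, classes and limits were chosen with earlier results of these data known. Alternatives covered scaling, repeats, read shift, bin offset, pseudocount, filter, fold, H3 condition, promoter definition, voom and left-out libraries.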

Additional observations from a re-analysis of the deposited data

How the results depend on the processing

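No paired analysis was possible because NPC H3K27ac has a single library. limma could not be run without an ES library, which leaves no residual degrees of freedom. Of the 20 named bins, 2 promoter gains missed the rule at 8-fold and with scaling to promoter reads, and all kept their direction under the alternatives run for them. Scaling to promoter reads, the split by ES H3K27ac level and the limit of 0.5 RPM were added after seeing the data.

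A 2-fold rule gave 10586 promoter and 15672 other gains and 5364 and 44045 losses. Median ES H3K4me1 was then 0.70 RPM at other gains and 3.49 at losses, p300 0.723 and 1.72 RPM, and the share ratios were 6.09 for gaining by H3K4me1 and 1.14 for losing by p300. An 8-fold rule gave 762 and 2181 gains and 1489 and 7590 losses, H3K4me1 of 4.31 RPM at losses, p300 of 0.663 and 3.04 RPM, and ratios of 5.37 and 5.20. A pseudocount of 1 RPM gave 4440 other gains and 12789 losses, a median difference of -0.88, H3K4me1 of 0.643 and 4.25 RPM, p300 of 0.712 and 2.70 RPM, and ratios of 5.33 and 3.80. A pseudocount of 0.25 RPM gave -1.32, p300 of 1.85 RPM at losses and a losing ratio of 1.26.

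A trimmed mean of M-values gave 7022 promoter and 13203 other gains, limma falls of 3545 and 32479 bins, medians of 1.36 and -0.43, and p300 of 2.30 RPM at losses. Scaling to background reads gave 4917 promoter gains, medians of 1.20 and -0.59, p300 of 2.20 RPM at losses, and ratios of 3.98 and 1.45. Scaling to promoter reads gave 1041 and 3052 gains, 4929 and 41995 losses, and limma rises of 5973 and 7936 bins. Its medians were -0.19 at promoters, where the direction turned, and -1.87 elsewhere. H3K4me1 was then 0.456 and 3.48 RPM, p300 0.602 and 1.72 RPM, and the ratios 5.35 and 1.49.

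Testing at a mean of 2 RPM gave limma 9813 higher and 25115 lower other bins, a median of -1.64, H3K4me1 of 0.727 and 4.21 RPM, p300 of 0.757 and 2.49 RPM, and ratios of 6.74 and 3.38. With no filter limma called 368 promoter and 201815 other bins higher and 736 and 5467 lower, with medians of 0.41 and -0.15. Thinned libraries gave 1894 and 8660 higher and 2899 and 27611 lower. limma-voom called 4171 and 19079 lower. The order of limma rises and falls thus turned with no filter, from 24.4% to 97.4% higher in other bins and from 61.4% to 33.3% at promoters, and with thinning at promoters, to 39.5% higher. The cause was not tested.

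H3K4me3 of 2 RPM gave 6490 promoter losses, limma 13088 lower, a median of 0.29, and 0.469 RPM of H3K4me1 and 0.602 of p300 at other gains. Widening promoters by 2 bins gave 7502, 16290, 0.056, 0.456 and 0.602 for the same quantities. With ES H3K4me3 alone limma called 4232 promoter bins lower, the other median was -1.07, and H3K4me1 and p300 at other gains were 0.594 and 0.663 RPM. With repeats kept, the other median was -1.27, H3K4me1 at gains 0.541 RPM and the losing ratio 1.43. That ratio was 1.45 with no condition on H3 and 1.80 with p300 over background. The gaining ratio was 5.92 for bins under 0.5 RPM in ES cells.

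Leaving out 1 library at a time gave 3301 to 6581 promoter gains, 0.508 to 0.569 RPM of H3K4me1 and 0.575 to 0.663 RPM of p300 at other gains, 1.82 to 2.16 RPM of p300 at losses, other medians of -1.23 to -1.16, and losing ratios of 1.33 to 1.77.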

Other observations

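Gains away from promoters made up unequal shares of the bins tested on each chromosome. They made up 11.6% of the other bins tested on chromosome 18, 11.3% on chromosome 3, 11.0% on chromosome 13 and 10.6% on chromosome 1, and 4.28% on chromosome 11, 4.87% on chromosome 5 and 5.18% on chromosome 17. Losses varied less, from 19.6% on chromosome 8 to 25.3% on chromosome 4. Chromosome 11 had the most other bins tested, 10205, and chromosome 18 the fewest, 2995. Most tested bins were admitted by ES H3K27ac and most gains by the NPC level, so these shares also follow the number of bins tested. The number of gains per length of chromosome was not compared.

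Rfx1 of NPCs reached 4 RPM at 13.0% of gains away from promoters, 3.96% of losses, 19.6% of kept bins and 9.45% of all other bins tested. At promoter bins the shares were 71.8% of gains, 23.0% of losses and 47.5% of kept bins, against 54.3% of those tested. NPC H3K27ac itself differs between these classes by their definition, and its part in the Rfx1 levels was not tested.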
